A study of Oryza sativa with 6 samples.

Results

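The enzymes described here are the glutathione S-transferases (GSTs), the superoxide dismutases (SODs) and the glutathione synthesis gene that the rice genome array measures under a gene name. A probe set was taken when the annotation paired it with exactly 1 gene whose symbol or synonym, with or without Os, was GST with a letter and a number, SOD, FSD, CSD or MSD, GR with a number, or GSH with a number. This gave 17 probe sets of 11 genes, out of 57194 tested probe sets and 17905 genes with a probe set of their own. Of the 17, 8 probe sets belonged to 6 GST genes, 6 to 4 SOD genes and 3 to 1 gene of glutathione synthesis, and no glutathione reductase gene was found by that name. Only 2458 of the genes carry a name beyond a locus number, so GST genes that are annotated by locus number alone are outside this set, and nothing is said here of them.

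Total RNA was taken from PB1 rice seeds of stage S3 (5 to 10 days after pollination), and 3 arrays were hybridised for WT plants and 3 for MADS29_KD plants. MADS29_KD plants carry an RNA interference construct against *OsMADS29*, which encodes a B-sister MADS-box protein expressed in the seed, and the comparison shows what silencing it goes along with. The promoter of the construct is not given in the sources used here, and neither is the origin of the 3 MADS29_KD samples in different plants or transformants, so each p-value reflects the spread among the 6 samples and no more. *OsMADS29* itself (gene ID 4328443) read 7.16, 6.60 and 7.30 on the log2 scale in WT and 5.17, 5.11 and 4.90 in MADS29_KD. All MADS29_KD arrays lay below all WT arrays, 3.89-fold lower on average (log2 difference −1.96 ± 0.21 (SE), limma adjusted p = 0.00725).

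GSTs join the tripeptide glutathione to reactive compounds, which marks the conjugate for export into the vacuole. In plants the phi class (F) and the tau class (U) are plant specific and respond to many stresses and hormones, while the zeta class (Z) works in tyrosine breakdown. SODs turn superoxide into hydrogen peroxide. Plants hold copper/zinc forms in the cytosol and the plastid and a manganese form in the mitochondrion. The peroxide is then removed by catalases, ascorbate peroxidases and the thiol systems, and in seeds these enzymes are known for protecting tissue during filling and drying.

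All 8 GST probe sets, of 6 genes, had a higher mean in MADS29_KD than in WT, although 1 was at background on all 6 arrays. Higher means are common here, as 46.5% of all tested probe sets had every MADS29_KD array above every WT array. Of the 8 GST probe sets 4, of 4 different genes (*GSTF1*, *GSTF2*, *GSTU6* and *GSTZ3*), rose at an adjusted p under 0.05. Of the 6 SOD probe sets only *SodCc2* rose, and the 3 glutathione synthesis probe sets were not called. In total 5 of the 17 probe sets rose, 0 fell and 12 were not called. Over all 57194 probe sets the same rule called 5.07% higher and 6.28% lower in MADS29_KD, 11.3% in either direction. Among the 19735 probe sets above array background, 12.7% were higher and 17.8% lower. The median log2 difference was 0.55 over the 8 GST probe sets and 0.30 over all 17, against 0.01 over all tested probe sets and −0.06 over those above background. Only *GSTF1* rose at least 2-fold, a rise that 2.05% of all probe sets showed with an adjusted p under 0.05. Every difference below is MADS29_KD minus WT on the log2 scale, and the value after ± is its SE unless SD is named. As the arrays hold RNA of whole seeds, fewer or more cells of a type and less or more RNA per cell cannot be told apart in any of these values.

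**Figure D1:**
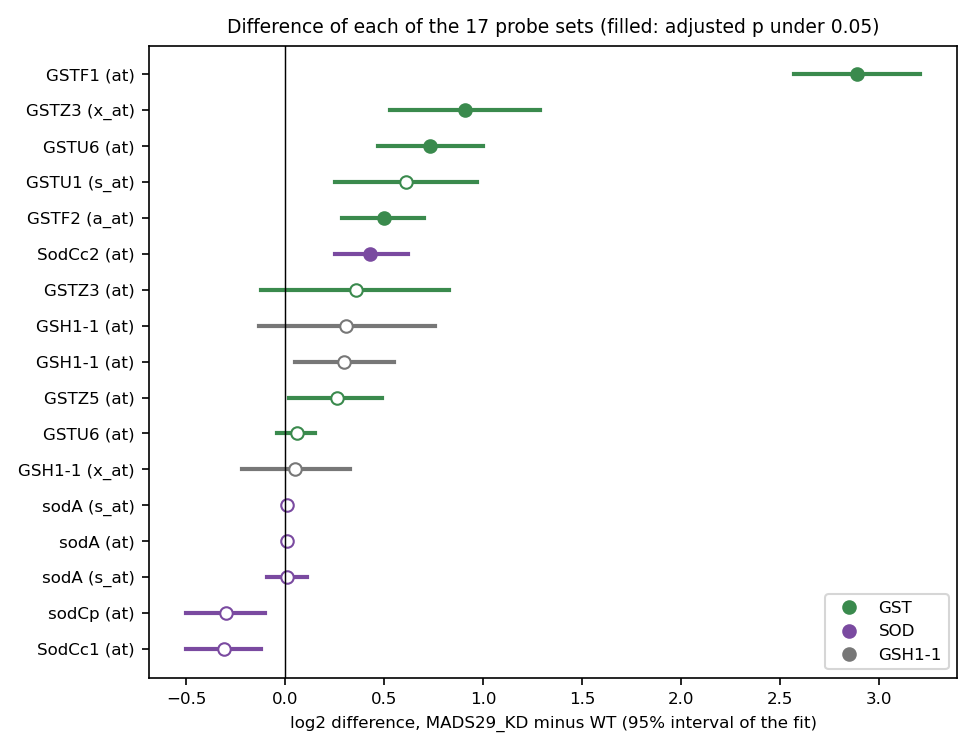
Log2 difference (MADS29_KD minus WT, horizontal axis) of each of the 17 probe sets with the 95% interval of the limma fit, coloured by enzyme group, where filled points mark an adjusted p under 0.05. *GSTF1* stands alone at 2.89, the other called probe sets lie between 0.43 and 0.91, and *SodCc1* and *sodCp* lie below 0 without being called.

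The large change belonged to *GSTF1* (gene ID 4325710), a phi class GST. Its signal was 3.75, 3.78 and 3.96 on the log2 scale in the WT arrays and 6.68, 6.54 and 6.94 in the MADS29_KD arrays. The WT values were low but above array background, which was 2.78 to 2.80 in WT and 2.85 to 2.92 in MADS29_KD, and the lowest MADS29_KD array lay 2.58 above the highest WT array. On average *GSTF1* read 3.83 ± 0.11 in WT and 6.72 ± 0.20 in MADS29_KD (SD, n = 3 each), a 7.41-fold rise (log2 difference 2.89 ± 0.12 (SE), 95% interval 2.57 to 3.21, limma adjusted p = 0.000606). By size of rise it was number 114 of all tested probe sets, within the top 0.199%. With any one array left out, the log2 difference stayed between 2.78 and 2.98 and the adjusted p between 0.00285 and 0.00605, so that the call held in 6 of 6 such fits.

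Signal at the 5′ end of the actin control transcript set WT replicate 2 (2.33) and MADS29_KD replicate 1 (2.75) apart from the other 4 arrays (5.86 to 6.42), a measure of RNA or labelling quality that here cuts across the groups. *GSTF1* differed by 2.88 in the 4 arrays with the high 5′ signal and by 2.90 between the other 2. Control transcripts with a poly-A tail were on average 0.86 higher on the log2 scale in MADS29_KD. Their part in the member values was not tested.

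The profile of *GSTF1* over the 6 arrays was then set beside those of all other genes with a name. Likeness was the Euclidean distance between log2 profiles, each centred on its own mean, so that a small distance means a rise of the same size with the same small deviations. The nearest was *OsC3H10* (distance 0.280), a CCCH-type zinc finger gene, which read 2.77, 2.77 and 2.80 in WT and 5.56, 5.45 and 5.61 in MADS29_KD. Since 2 of its WT arrays and the WT mean lay at background, its rise is given as at least 6.69-fold. Next came *OSE727A* (distance 0.285), also named *RBBI3.3*, a Bowman-Birk type trypsin inhibitor, at 6.20, 6.46 and 6.38 in WT and 9.11, 8.92 and 9.24 in MADS29_KD (log2 difference 2.75 ± 0.11, limma adjusted p = 0.00054). The third was *OsPP2C66* (distance 0.305), a type 2C protein phosphatase gene that was at background in all 3 WT arrays and at least 6.63-fold higher in MADS29_KD. Among all other probe sets, named or not, these were numbers 2, 4 and 7 by distance. They were chosen for their pattern, so their values describe it and test nothing.

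*GSTF2* (gene ID 4326887), the other phi class gene, was bright in both groups and moved little. It read 10.14, 10.34 and 10.06 in WT and 10.72, 10.68 and 10.63 in MADS29_KD, with no overlap between the groups. The rise was 1.41-fold (log2 difference 0.50 ± 0.08 (SE), 95% interval 0.29 to 0.70, limma adjusted p = 0.0226). WT replicate 2, one of the arrays with the low actin 5′ signal, was the highest WT array. The call held only with that array left out (adjusted p = 0.00693) and was lost with any other array left out (up to 0.0910).

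Both tau class genes had higher means in MADS29_KD, and 1 of them was called. *GSTU6* (gene ID 4349207) read 4.92, 5.05 and 4.75 in WT and 5.76, 5.64 and 5.51 in MADS29_KD. These groups stood 0.47 apart at their nearest arrays, and the rise was 1.66-fold (log2 difference 0.73 ± 0.10, limma adjusted p = 0.0152). The call was lost without WT replicate 1 (0.0656) or MADS29_KD replicate 2 (0.0660). A second *GSTU6* probe set never exceeded background (2.52 to 2.66 over the 6 arrays) and so gives no second reading of the gene. *GSTU1* (gene ID 4334347) read 4.43, 4.44 and 4.03 in WT and 4.78, 4.96 and 4.99 in MADS29_KD. The arrays did not overlap, but the adjusted p was 0.0641, with a log2 difference of 0.61 ± 0.14 and a 95% interval of 0.25 to 0.97. Its probe set is of the kind whose probes are shared by several transcripts (s_at), which may be of other GST genes.

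The gene *GSTZ3* (gene ID 4329692), zeta class by the letter in its name, was read by a pair of probe sets that differed. The brighter one gave 5.91, 6.03 and 5.75 in WT and 7.02, 6.84 and 6.55 in MADS29_KD, with all MADS29_KD arrays higher. It rose 1.88-fold (log2 difference 0.91 ± 0.15 (SE), 95% interval 0.53 to 1.29, limma adjusted p = 0.0238). Some of its probes match other sequences too (x_at), and the call was lost when only the 4 arrays of high 5′ signal were fitted (0.0673) and in 4 of 6 fits with 1 array left out (up to 0.0926). The dimmer probe set, unique to the gene by its suffix, read 3.15, 3.56 and 3.48 in WT and 4.01, 3.48 and 3.77 in MADS29_KD. There the groups overlapped (log2 difference 0.36 ± 0.18, limma adjusted p = 0.234). *GSTZ5* (gene ID 4332455) read 7.17, 7.22 and 7.19 in WT and 7.64, 7.37 and 7.34 in MADS29_KD. It is placed here by the letter in its name alone, and the class of neither gene was checked. The WT arrays were nearly identical and all lay lower, but the step was small and not called (log2 difference 0.26 ± 0.09, 95% interval 0.02 to 0.49, limma adjusted p = 0.15).

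**Figure D2:**
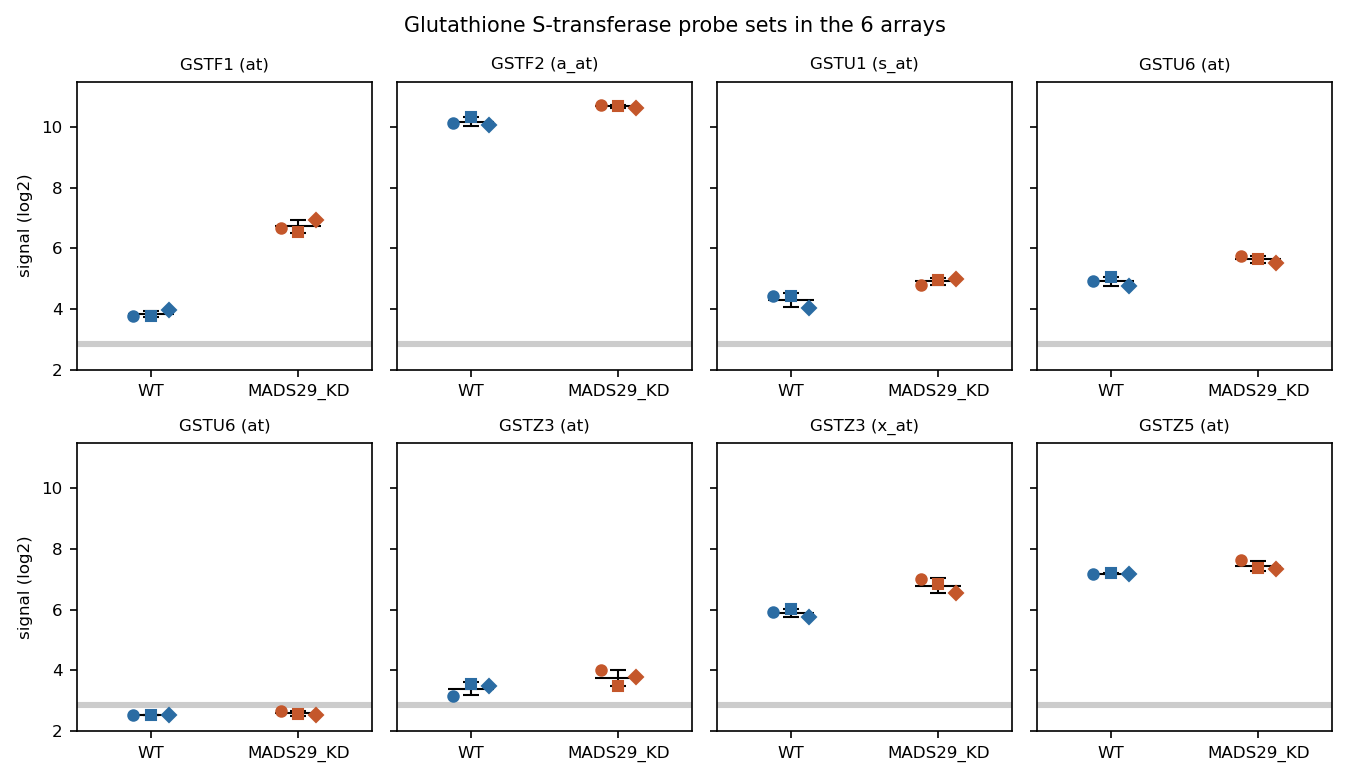
Signal on the log2 scale (vertical axis) of the 8 GST probe sets in the 3 WT and 3 MADS29_KD arrays, where circles, squares and diamonds are replicates 1, 2 and 3, bars give the mean and SD, the grey band marks array background, and the suffix in each title is the kind of probe set. In 7 of the 8 panels every MADS29_KD point lies above every WT point, including the second *GSTU6* probe set, which lies below background.

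Groups that do not overlap are common in this comparison. Over all tested probe sets, 46.5% had every MADS29_KD array above every WT array and 12.1% had every MADS29_KD array below, dim probe sets included. Of the 17 member probe sets 11 did not overlap, 7 of them GST probe sets with MADS29_KD higher, and the absence of overlap is read here only beside these shares.

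Of the 4 SOD genes 1 rose, 2 had lower means in MADS29_KD without being called, and 1 had nearly equal means. *SodCc2* (gene ID 4344210), a cytosolic copper/zinc SOD, read 9.26, 9.20 and 9.22 in WT and 9.81, 9.61 and 9.56 in MADS29_KD. The WT arrays lay close together and all MADS29_KD arrays were higher, with a 1.35-fold rise (log2 difference 0.43 ± 0.07 (SE), 95% interval 0.25 to 0.62, limma adjusted p = 0.0235). Between the 2 arrays with the low actin 5′ signal *SodCc2* differed by 0.60, and in the other 4 by 0.35, where it was still called (0.0188). The call was lost in 4 of 6 fits with 1 array left out, namely each WT array and MADS29_KD replicate 2 (0.0702 to 0.0994).

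The other cytosolic copper/zinc SOD, *SodCc1* (gene ID 4332846), was the brightest SOD probe set. It read 10.05, 10.08 and 10.12 in WT and 9.61, 9.84 and 9.85 in MADS29_KD. All MADS29_KD arrays were lower, and replicate 1, of low actin 5′ signal, was the lowest. The log2 difference was −0.31 ± 0.07 (SE), with a 95% interval of −0.50 to −0.12 and a limma adjusted p of 0.0681, and without MADS29_KD replicate 1 it was called (0.0176). The plastid copper/zinc SOD *sodCp* (gene ID 4346329) read 9.16, 9.10 and 9.12 in WT and 8.68, 8.96 and 8.85 in MADS29_KD. Again the MADS29_KD arrays were all lower and replicate 1 lowest, at a log2 difference of −0.30 ± 0.08 (95% interval −0.50 to −0.10, limma adjusted p = 0.0862). When the dim probe sets were left out of the fit, both were called lower (0.0355 for *SodCc1* and 0.0457 for *sodCp*). That fit called 5146 of its 19735 probe sets lower, so such a call was common in it. A fit with array weights over all tested probe sets also called both lower (limma adjusted p = 0.0332 and 0.0267), among 4075 of 57194 called lower. Their side of the threshold thus depends on the fit, and the reason was not tested.

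The pairs were also set side by side within each array, as a description with no test, since they were picked after the values were seen. The difference between *SodCc2* and *SodCc1*, set relative to its WT mean, was 0.07, −0.02 and −0.04 in WT and 1.05, 0.63 and 0.57 in MADS29_KD. All 3 MADS29_KD arrays were higher, by 0.75 on the log2 scale on average. The shift was 0.73 for *SodCc2* against *sodCp* and 0.02, with overlapping groups, for *sodCp* against *SodCc1*.

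The mitochondrial manganese SOD *sodA* (gene ID 4338417) read 7.62, 7.58 and 7.71 in WT and 7.65, 7.64 and 7.63 in MADS29_KD. The groups overlapped, and the log2 difference of 0.01 ± 0.04 had a 95% interval of −0.09 to 0.11 (limma adjusted p = 0.865). This is an s_at probe set, whose probes may match other transcripts too. On none of the 6 arrays did the 2 other *sodA* probe sets exceed background. *CCS*, the copper chaperone that loads copper/zinc SODs, read 5.18, 5.27 and 5.23 in WT and 5.25, 5.26 and 5.24 in MADS29_KD (log2 difference 0.02 ± 0.02, limma adjusted p = 0.478).

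**Figure D3:**
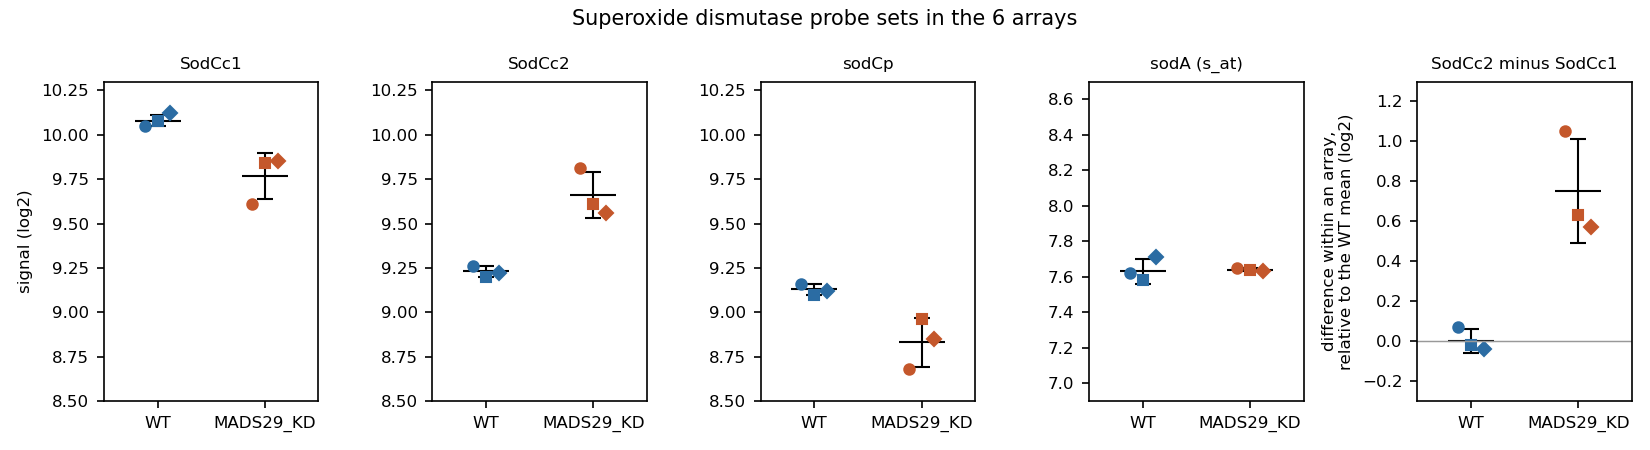
Signal on the log2 scale of 4 SOD probe sets in the 3 WT and 3 MADS29_KD arrays, and in the last panel the difference between *SodCc2* and *SodCc1* within an array relative to its WT mean; circles, squares and diamonds are replicates 1, 2 and 3, bars give the mean and SD, and the vertical axes do not start at 0. *SodCc2* is higher and *SodCc1* and *sodCp* are lower on every MADS29_KD array, with MADS29_KD replicate 1 the farthest from WT in all 3.

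*GSH1-1* (gene ID 4337696) encodes gamma-glutamylcysteine synthetase, the first and rate-limiting step of glutathione synthesis. Its brightest probe set read 7.82, 7.58 and 7.90 in WT and 7.72, 7.94 and 7.80 in MADS29_KD, with overlapping groups and a log2 difference of 0.05 ± 0.11 (95% interval −0.22 to 0.33, limma adjusted p = 0.697). Some of the probes of this set may match other sequences too (x_at). The other 2 probe sets, unique to the gene by their suffix, had log2 differences of 0.30 ± 0.10 and 0.31 ± 0.17. Neither was called (limma adjusted p = 0.131 and 0.25). In the 4 arrays with alike actin 5′ signal these 2 probe sets were called higher, at 0.41 and 0.37 (adjusted p = 0.0469 and 0.0141).

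The steps around these enzymes were read from lists of named genes, each gene by its brightest probe set. Read the same way, 10.8% of all 17905 genes rose and 14.8% fell, 25.7% in either direction, and counts of list genes are to be read beside these shares. In sulfur assimilation, which supplies the cysteine of glutathione, 1 of 3 genes rose and 1 fell. *APR1*, also named APR-like 1 and read by an s_at probe set, went from 6.21, 6.18 and 6.41 in WT to 8.45, 8.35 and 8.54 in MADS29_KD. All MADS29_KD arrays were higher, by 4.53-fold on average (log2 difference 2.18 ± 0.08, limma adjusted p = 0.000487). A cysteine synthase gene (OAS-TL, gene ID 4352839) fell by 0.99 on the log2 scale (adjusted p = 0.00294), and a second one (gene ID 4334101) differed by −0.10 ± 0.10 and was not called.

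The ABCC transporter family, which includes the vacuolar pumps for glutathione conjugates, had 1 gene with a name, *ABCC13*, which rose. *ABCC13*, also named *LPA2*, is known for the storage of phytate in rice seeds and not as a conjugate pump. It read 7.36, 7.57 and 7.32 in WT and 9.06, 8.98 and 8.72 in MADS29_KD. All MADS29_KD arrays were higher, by 2.83-fold on average (log2 difference 1.50 ± 0.12 (SE), limma adjusted p = 0.00291). The glyoxalase *GLYI-11*, an enzyme that uses glutathione to clear methylglyoxal, differed by −0.09 ± 0.07 and was not called (adjusted p = 0.327).

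Among 11 genes of peroxide removal 1 rose and 3 fell, with a median log2 difference of −0.12. The deepest fall was that of the catalase *CAT-A*, from 10.48, 10.55 and 10.52 in WT to 6.51, 6.85 and 6.55 in MADS29_KD. All MADS29_KD arrays lay far below WT, 14.7-fold on average (log2 difference −3.88 ± 0.10, limma adjusted p = 0.000202), by an x_at probe set. The ascorbate peroxidases *APX6* and *APX5* fell too (−1.38 ± 0.08 and −1.15 ± 0.15, adjusted p = 0.00137 and 0.0123), whereas the cytosolic *APX2* rose by 0.35 ± 0.04 (adjusted p = 0.00591). The other cytosolic form, *APX1*, differed by −0.23 ± 0.07 and was not called (adjusted p = 0.104).

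Of 38 thiol redox genes 4 rose, 5 fell and 3 were at background on all arrays, with a median log2 difference of 0.00. The glutaredoxin *GRXC7* (1.60 ± 0.10, adjusted p = 0.00165) and the thioredoxins *OsTrx03* (1.79 ± 0.13, adjusted p = 0.00241) and *OsTrx14* (0.69 ± 0.06, adjusted p = 0.00389) were the clearest rises. *GRXS5* (−1.32 ± 0.09, adjusted p = 0.00181), *OsTrxy* (−0.47 ± 0.05, adjusted p = 0.00566) and *OsTrx25* (−1.31 ± 0.19, adjusted p = 0.0176) fell. Glutaredoxins use glutathione to reduce disulfides, and thioredoxins do so with other electron donors. With 9 of 38 called here and 4 of 11 in peroxide removal, neither list stands clearly apart from the 25.7% over all genes. Of the 2 genes of superoxide production and its respiratory bypass, the NADPH oxidase *OsrbohB* fell by 0.43 on the log2 scale (adjusted p = 0.0255), and the alternative oxidase *AOX1a* differed by 0.50 ± 0.11 and was not called (adjusted p = 0.064).

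Markers of seed tissues were read in the same arrays. Of 7 genes of the embryo and late maturation 6 rose, with a median log2 difference of 3.46, and their summed signal was 8.82 to 9.02 on the log2 scale in WT and 12.86 to 12.94 in MADS29_KD. Among them *RAB21*, a dehydrin, rose by 7.51 ± 0.06, while *OSH1*, a homeobox gene of the embryo's shoot region, was not called (−0.11 ± 0.06). Of 10 endosperm genes 5 rose (summed signal 15.58 to 15.82 in WT and 16.03 to 16.07 in MADS29_KD), with *GLUB-4* at background on all arrays. The other 5 were not called, among them the starch regulator *RSR1* (−0.84 ± 0.19, adjusted p = 0.0661) and the granule-bound starch synthase gene *waxy* (0.07 ± 0.07). Of 3 genes of the green pericarp 1 rose (*OsrcaA1*, 1.80 ± 0.10) and 1 fell (*CAB2R*, −1.20 ± 0.07). Their summed signal, in which *CAB2R* is the brightest, was 13.00 to 13.08 in WT and 12.12 to 12.23 in MADS29_KD. None of the 5 genes of anther and pollen was called, and *RTS*, *TDR* and *C6* were at background on all 6 arrays. The part of these tissue markers in the GST and SOD values was not tested.

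**Figure D4:**
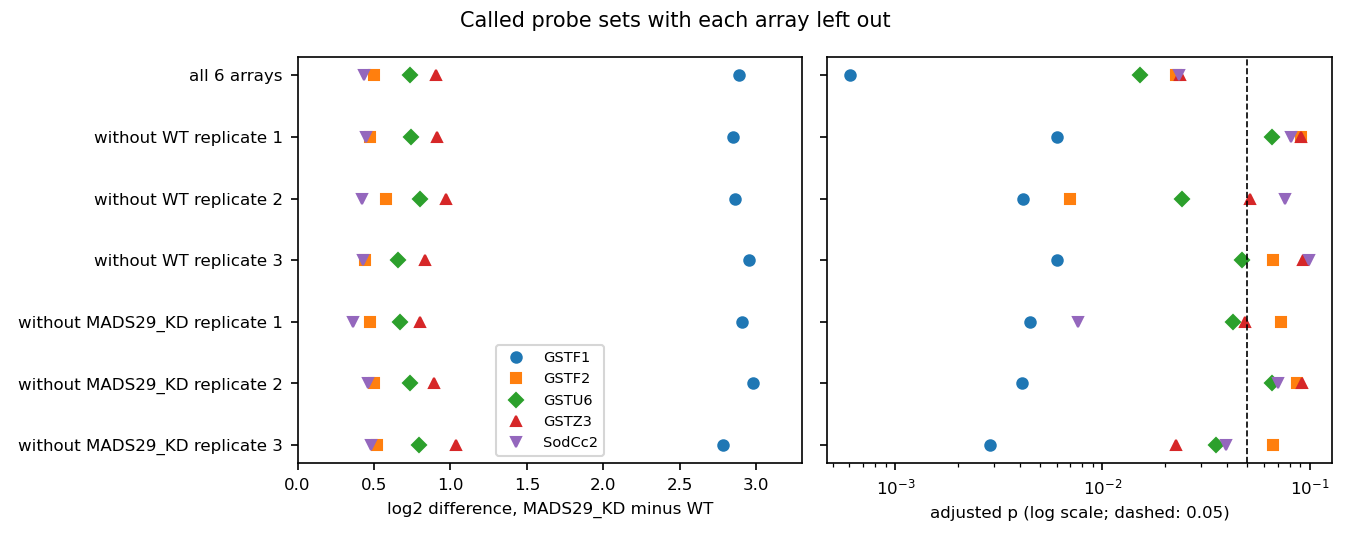
Log2 difference (left) and limma adjusted p on a log axis (right, dashed line at 0.05) of the 5 called probe sets, with all 6 arrays and with each array left out in turn. *GSTF1* keeps its place near 2.9 and an adjusted p of at most 0.00605 throughout, while each of the other called probe sets crosses 0.05 in at least 2 of the 6 fits.

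Leaving out arrays separated *GSTF1* from the other calls. Besides *GSTF1*, 0 of the other 4 called probe sets kept an adjusted p under 0.05 in all 6 fits with 1 array left out, *GSTU6* keeping it in 4, *GSTZ3* and *SodCc2* in 2 each and *GSTF2* in 1. Their log2 differences kept their sign in every one of these fits, from 0.66 to 0.80 for *GSTU6*, 0.80 to 1.03 for *GSTZ3*, 0.36 to 0.48 for *SodCc2* and 0.44 to 0.58 for *GSTF2*.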

How the data were processed

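The deposited data were a single table of linear intensity values for 57381 probe sets on 6 arrays. Per the labels, biotin-labelled cRNA was made from 500 ng of Trizol-extracted total RNA. How the authors corrected, summarized and normalized these intensities, and with which software, is not given in the sources used here, and an upstream step that sets dim probe sets to nearly equal values would narrow their spread. Groups and replicate numbers came from the labels.

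Log2 of the intensity was fitted with limma 3.58.1 in R 4.3.3 (lmFit, eBayes, no block). After removal of 187 control probe sets, p-values of the other 57194 were adjusted by Benjamini-Hochberg, and calls were made under 0.05. Array background was the 95th percentile of 74 probe sets foreign to rice. A gene at background in 1 group has its fold given as a lower bound ("at least") against that level, array by array, a rule set after the values were seen. Gene names came from the array annotation and the RefSeq gene table (ASM3414082v1), and without a named build for the array no coordinates or sequences are given.

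Members called, the brightest of each family, the 3 named genes nearest to *GSTF1* and up to 3 called genes each way per list are given in full, and *CCS*, *GLYI-11*, *APX1*, *AOX1a*, *OSH1*, *RSR1*, *waxy* and the second cysteine synthase were added after their values were seen. Members and lists were chosen with earlier results of these data known. The number of arrays limits the precision.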

Additional observations from a re-analysis of the deposited data

How the results depend on the processing

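Against 5 of 17 member probe sets called, the fit over probe sets above background called 8 of 14 (6 higher, 2 lower). With 1 probe set per gene 8 of 11 were called (6 higher, 2 lower). The 4 arrays with alike actin 5′ signal called 8 of 17 (7 higher, 1 lower). Over all features the main fit called 6490 of 57194. Above background 8577 of 19735 were called (3431 higher, 5146 lower). The fit with 1 probe set per gene called 6016 of 17905 (2487 higher, 3529 lower), and the 4 alike arrays 6050 of 57194. The first 2 of these 3 refits adjust over fewer features, and the member counts are to be read beside these totals. For none of these fits was the cause of the higher count tested. With 1 array left out the count ranged from 1 to 7, lowest without WT replicate 1 or MADS29_KD replicate 2 (1 each), then without WT replicate 3 (2) and WT replicate 2 (3). Of the member probe sets called at 2-fold, the count was 1 to 2, the second being *GSTZ3* without MADS29_KD replicate 3. Over all probe sets 6490 calls became 3596 to 5475 with 1 array left out, lowest without WT replicate 3 (3596), WT replicate 1 (3912) and MADS29_KD replicate 2 (4288).

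Replicate numbers are shared by the groups, and deviations of same-numbered arrays correlated at −0.54, −0.54 and 0.43. The highest correlation of any pair, 0.67, was between WT replicate 2 and MADS29_KD replicate 1, the arrays set apart by the actin control. With so few arrays and this split among them, the correlations cannot decide whether the numbers pair the samples. With the replicate number as a block 1 member (*GSTF1*, adjusted p = 0.0155) and 2140 of all probe sets were called, and *OsMADS29* kept −1.96 with an adjusted p of 0.0796. *OsMADS29* ranged from −2.17 to −1.82 with 1 array left out.

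Over 258 refits of single members, 222 kept their side of the threshold, 16 gained and 20 lost a call, and no called difference changed sign. Array weights also called *SodCc1* (−0.36) and *sodCp* (−0.38) lower.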
